A study of Mus musculus with 4 samples.

Results

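Rbm3 and Cirbp, 2 of the 31053 genes counted in these libraries, encode small RNA-binding proteins whose transcripts are known to accumulate when mammalian cells are mildly cooled. They were chosen by their symbols, after earlier results of these data had shown unusual values for them, so their levels and their relation over cells are given below as a description. Both genes were counted in all 9300 cells. The cells were liver mononuclear cells of C57BL/6 mice of 8 to 10 weeks, from 4 libraries with 1 library per group. Naïve mice received no Concanavalin A (ConA), a plant lectin that activates T cells and produces hepatitis in mice. The other 3 groups were given ConA and then vehicle (ConA+Veh), the dioxin 2,3,7,8-tetrachlorodibenzo-p-dioxin (ConA+TCDD) or 6-formylindolo[3,2-b]carbazole (ConA+FICZ), and their cells were collected 24 hours after ConA. TCDD and FICZ both bind the aryl hydrocarbon receptor (AhR), a transcription factor that is activated by its ligands. How many mice each library came from is not given in the sources used here, which mention no change of temperature between the groups.

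Both proteins are built from an RNA recognition motif, the fold with which many RNA-binding proteins grip single-stranded RNA, followed by a tail rich in arginine and glycine. They are known to bind messenger RNAs and to affect their stability, translation and polyadenylation, and they are expressed in most tissues at normal body temperature. Heat is known to lower both transcripts while it raises those of the heat shock proteins. Cirbp is also known outside the cell, where the protein can act as a signal of tissue damage.

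Rbm3 (ENSMUSG00000031167) is a protein-coding gene on the minus strand of chromosome X, at chrX:8138975-8145880 in GRCm38, the build of the deposited counts (mm10). Its start overlaps the antisense gene Rbm3os by 452 bases, but Rbm3os held only between 7 and 11 UMIs in a library, against 3635 to 13007 for Rbm3. UMIs are unique molecular identifiers, each of which stands for 1 captured RNA molecule. A processed copy, Rbm3-ps, lies on chromosome 1, and reads shared with it could have been lost in the authors' counting. Cirbp (ENSMUSG00000045193) is a protein-coding gene on the plus strand of chromosome 10, at chr10:80165985-80172786, and the next gene begins 158 bases after its end. The coding sequences have 462 bases in Rbm3 and 516 bases in Cirbp, and 72.9% of 450 aligned bases are the same.

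The most conserved part of the RNA recognition motif is an octapeptide known as RNP1, which touches the RNA. It is encoded by codons 47 to 54 in both genes, and the 24 bases are shown because they show how close the pair is. They come from GENCODE transcripts Rbm3-201, minus strand, at chrX:8144621-8144644, and Cirbp-202, plus strand, at chr10:80170051-80170074, within coding exons. Capitals mark the bases at which the genes differ, so that 18 of 24 are the same.

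Rbm3: cgGggTtttggCttCAtcaccttC

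Cirbp: cgAggCtttggGttTGtcaccttT

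Of the 2 genes, Cirbp was matched in the RefSeq promoter table for GRCm38.p6, and a part of its promoter is shown because Cirbp had the larger difference between Naïve and ConA+Veh of the pair. The 189 bases at chr10:80167589-80167777, plus strand, end just before the first exon of Cirbp-202 and lie in an intron of a longer annotated transcript. Capitals mark 3 motifs searched on both strands: TCCCCGCC, described for Cirbp as a mild-cold response element, GCGTG, the core of the site bound by AhR, and CCAAT. Their matches do not overlap.

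Cirbp promoter: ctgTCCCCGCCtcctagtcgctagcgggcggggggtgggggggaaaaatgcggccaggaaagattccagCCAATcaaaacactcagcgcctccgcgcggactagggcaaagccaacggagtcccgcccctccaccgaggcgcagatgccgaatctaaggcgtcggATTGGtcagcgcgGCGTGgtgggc

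TCCCCGCC occurred once, 239 bases before the RefSeq start, and was held by 2.86% of 32851 promoter windows of the same length. GCGTG also occurred once, 67 bases before the start, and was held by 21.1% of the windows. CCAAT occurred once on each strand and was held by 26.5% of them. The window had a GC content of 66.1%, against a mean of 52.2%, and a match of letters does not show that a factor was bound.

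The libraries held 2086 to 2779 Naïve, ConA+Veh and ConA+FICZ cells and 1880 ConA+TCDD cells, with 5952445 UMIs in Naïve and 12077209 to 19252211 in the ConA libraries. The median cell held 2161 UMIs in Naïve and between 3147 and 3984 in the others, and the median mitochondrial share was 2.63% to 4.47%. Cells were gated by markers: a cell entered a gate when it held UMIs of at least 3 genes of that list and at least 2 more genes than of any other list. The B gate (for example Cd79a, Cd79b, Ms4a1) took 1089 Naïve cells and 836 ConA+Veh, 397 ConA+TCDD and 785 ConA+FICZ cells, and the T gate (Cd3e, Trac, Trbc2) took 504, 768, 649 and 529. The cells that no gate took were 8.39% of Naïve, 15.5% of ConA+Veh, 25.2% of ConA+TCDD and 12.02% of ConA+FICZ. Between 4 and 15 barcodes were shared by any pair of libraries, and Xist was present in all 4.

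A level is the summed UMIs of a gene in a gate per 1000000 UMIs of that gate (CPM). In parentheses stand 95% intervals: exact Poisson for a CPM, exact Clopper-Pearson for a percentage, and exact conditional binomial for a log2 ratio. All of them cover counting error only. Since every group is 1 library, replicate variation is unknown, p-values are left out, and comparisons are between libraries.

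In T-gated cells Rbm3 was at 680 CPM (643 to 719) in Naïve, 560 (545 to 576) in ConA+Veh, 927 (904 to 951) in ConA+TCDD and 963 (940 to 987) in ConA+FICZ. The B-gated cells held 630 CPM (601 to 661), 500 (480 to 520), 780 (743 to 819) and 738 (713 to 764) in the same order. Both lymphocyte gates had their lowest Rbm3 level in ConA+Veh, and over the whole gates the libraries with an AhR ligand were above Naïve. Within ranges of depth the latter often failed. In B-gated cells of under 2500, 2500 to 5000 and over 5000 UMIs, ConA+FICZ held 425, 566 and 818 CPM. Naïve held 516, 678 and 862. In T-gated cells ConA+FICZ was below Naïve except over 5000 UMIs. Where it was lower, the intervals overlapped except at 2500 to 5000 UMIs. ConA+TCDD was lower in B-gated cells over 5000 UMIs, at 644 CPM. It was otherwise higher, except in T-gated cells under 2500 UMIs, where intervals overlapped. NK-gated cells held 454 CPM (372 to 547), 376 (336 to 418), 621 (559 to 688) and 650 (586 to 719). The gate of mononuclear phagocytes, the macrophages, monocytes and dendritic cells of the liver, held 679 CPM (606 to 758), 546 (515 to 579), 763 (692 to 838) and 893 (849 to 938). ConA+Veh had the lowest value in these 4 gates, but the intervals of Naïve and ConA+Veh overlapped in NK-gated cells, and in phagocyte-gated cells the log2 ratio of ConA+Veh over Naïve turned from −0.31 (−0.49 to −0.13) to 0.30 (−0.05 to 0.67) without the 5% of cells with the most UMIs.

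The neutrophil gate had a different order. Rbm3 was at 82.2 CPM (22.4 to 210) in the 23 Naïve cells, 262 (208 to 326) in the 105 cells of ConA+Veh, 484 (357 to 642) in the 44 cells of ConA+TCDD and 189 (158 to 225) in the 265 cells of ConA+FICZ. Within Naïve, ConA+Veh and ConA+FICZ it stood below the T, B, NK and phagocyte gates, and in ConA+TCDD its interval overlapped that of the NK gate next above it. T and phagocyte gates led the order in Naïve and ConA+Veh with overlapping intervals, followed by B and, apart from it, by endothelial or NK-gated cells. The T gate also led in ConA+FICZ, with an interval above that of the phagocytes. In ConA+TCDD an erythroid gate of 47 cells was highest among gates of at least 20 cells, at 1122 CPM (944 to 1324), and its interval overlapped that of the T gate, while 11 cells in a gate of granulocyte progenitors held 1284 CPM (1111 to 1476). The ungated cells of ConA+TCDD held 1230 CPM (1178 to 1284), against 331 to 780 CPM in the ungated cells of the other libraries.

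Cirbp had another pattern. T-gated cells held 131 CPM (115 to 149) in Naïve, 30.004 (26.5 to 33.9) in ConA+Veh, 49.5 (44.3 to 55.3) in ConA+TCDD and 32.0 (27.9 to 36.6) in ConA+FICZ. In B-gated cells the values were 212 CPM (195 to 230), 46.2 (40.3 to 52.6), 82.2 (70.5 to 95.3) and 44.9 (38.9 to 51.6). The Naïve library was highest in both gates, and among the ConA libraries ConA+TCDD stood above the other two over the whole gates. NK-gated cells held 183 CPM (133 to 246), 63.0 (47.6 to 81.8), 75.8 (55.3 to 101) and 68.0 (48.3 to 92.9), where the 3 ConA libraries overlapped. In phagocytes the sums were small, at 18, 44, 24 and 34 UMIs, and the levels were 38.9, 20.9, 42.6 and 19.3 CPM. The order of the gates differed from that of Rbm3 as well, since B or NK-gated cells, and not T-gated cells, had the highest Cirbp level of the lymphocytes in each library.

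**Figure D1:**
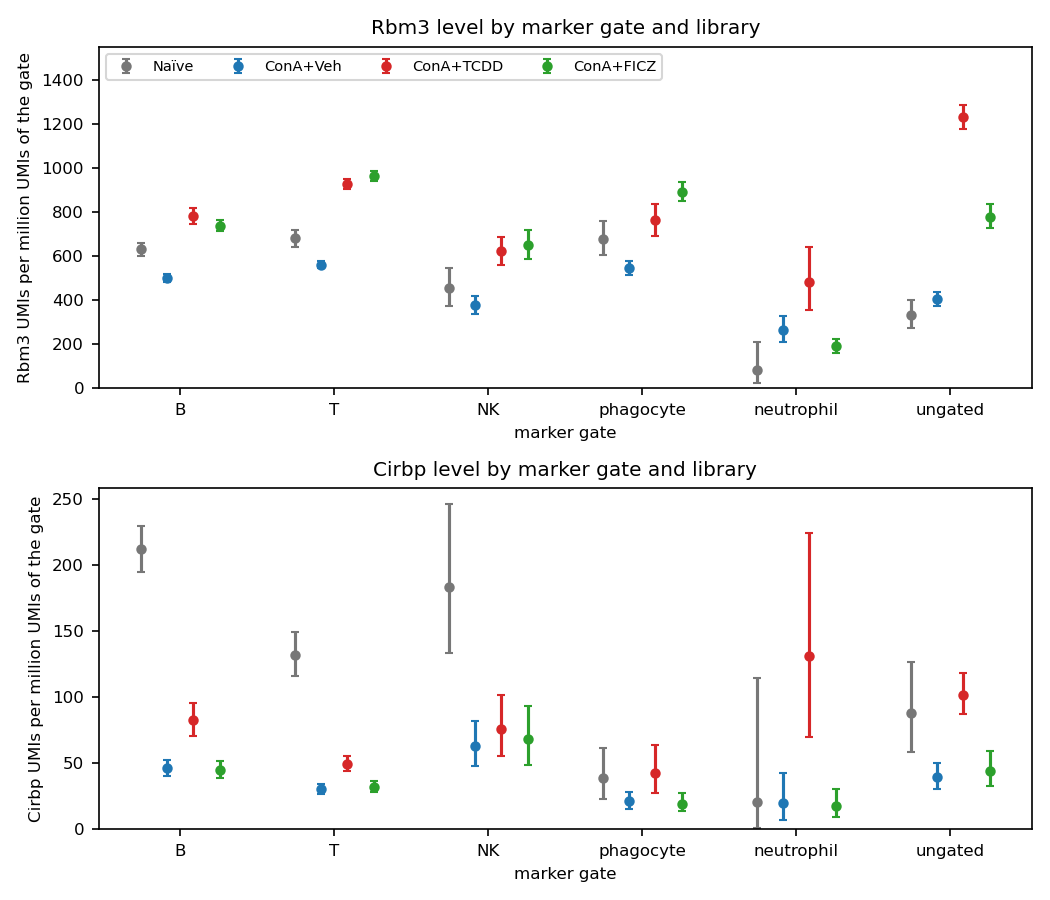
CPM of the gate (vertical axes, linear from 0) for Rbm3 (top) and Cirbp (bottom) by marker gate and library, as points with exact 95% Poisson intervals. Rbm3 is lowest in ConA+Veh in the B, T, NK and phagocyte gates, though not among phagocytes without the 5% of cells with the most UMIs, whereas Cirbp is highest in Naïve in the B, T and NK gates.

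The first comparison asks how the genes differed in ConA hepatitis. The log2 ratio of ConA+Veh over Naïve for Rbm3 was −0.28 (−0.37 to −0.19) in T-gated and −0.34 (−0.42 to −0.25) in B-gated cells. For Cirbp it was −2.13 (−2.39 to −1.87) and −2.20 (−2.43 to −1.97). Naïve cells were shallower, and within ranges of depth the difference was smaller for Cirbp and larger for Rbm3. Among cells of under 2500, 2500 to 5000 and over 5000 UMIs, the Cirbp ratios were −1.59 (−2.72 to −0.61), −1.76 (−2.34 to −1.22) and −1.16 (−1.63 to −0.66) in T-gated cells, and −1.54 (−2.13 to −1.0003), −1.60 (−2.02 to −1.20) and −0.79 (−1.39 to −0.14) in B-gated cells. Those of Rbm3 were −1.01 (−1.49 to −0.55), −1.14 (−1.39 to −0.89) and −0.44 (−0.56 to −0.31) in T-gated cells, and −0.67 (−0.98 to −0.37), −0.78 (−0.97 to −0.60) and −0.66 (−0.82 to −0.50) in B-gated cells. All NK-gated cells together had a Cirbp ratio of −1.54 (−2.14 to −0.94). Of the genes that reached 100 UMIs over the pair of libraries, 78 of 7135 had a lower ratio than Cirbp in T-gated cells, and 49 of 6242 in B-gated cells. Ratios at least 2-fold lower were common in this contrast, at 10.4% of genes in T-gated and 14.0% in B-gated cells, and those at least 2-fold higher made up 8.86% and 6.71%. Over the whole gates Cirbp was among the 2-fold lower genes and Rbm3 was in neither class, but within depth Rbm3 was also past 2-fold lower in T-gated cells of under 2500 and of 2500 to 5000 UMIs, and Cirbp was not in B-gated cells of over 5000.

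For ConA+TCDD over ConA+Veh, the ratio of Rbm3 was 0.73 (0.67 to 0.78) in T-gated, 0.64 (0.55 to 0.73) in B-gated, 0.73 (0.51 to 0.94) in NK-gated and 0.48 (0.32 to 0.64) in phagocyte-gated cells. That of Cirbp was 0.72 (0.48 to 0.96) in T-gated, 0.83 (0.54 to 1.12) in B-gated and 1.02 (0.24 to 1.77) in phagocyte-gated cells. In NK-gated cells it was 0.27 (−0.33 to 0.86), so a difference was not detectable there at this depth. Neither gene passed 2-fold in T-gated or B-gated cells, where 0.296% and 0.32% of genes were at least 2-fold higher and 0.527% and 1.26% at least 2-fold lower. In T-gated cells 67 of 7783 genes had a higher ratio than Rbm3 and 69 had a higher ratio than Cirbp, and in B-gated cells 122 and 42 of 5631 did. The ratio of Rbm3 in T-gated cells depended on which cells carried the UMIs. It was 1.35 when each cell had the same weight, and 1.65 (1.54 to 1.75) when cycling cells, those with UMIs of at least 2 genes of a list of cycling genes, were left out. Without the cells that had no Cd52 UMI, described below, it was 0.38 in T-gated and 0.39 in B-gated cells, and that of Cirbp in T-gated cells was 0.48. Depth moved with it as well. In the 3 ranges of depth from low to high, the ratio of Rbm3 was 0.71 (0.11 to 1.31), 2.27 (2.04 to 2.51) and 0.60 (0.54 to 0.65) in T-gated cells, and 1.07 (0.69 to 1.46), 1.67 (1.48 to 1.86) and 0.24 (0.13 to 0.36) in B-gated cells. The size of the Rbm3 ratio, but not its sign, thus differed with depth. Cirbp had −1.09 (−3.58 to 0.87), 0.78 (0.14 to 1.43) and 0.73 (0.47 to 1.0005) in T-gated cells of these ranges. In B-gated cells it had 0.33 (−0.54 to 1.19), 1.32 (0.84 to 1.81) and 0.46 (0.03 to 0.89). The Cirbp ratio was 0.25 (−0.08 to 0.58) in cycling and 0.92 (0.53 to 1.32) in other T-gated cells. The Rbm3 ratio also differed with mitochondrial share. In T-gated cells it was 0.68 (0.63 to 0.74) at most 5% mitochondrial and 0.44 (0.07 to 0.81) over 5%. In B-gated cells it was 0.63 (0.53 to 0.72) and 2.01 (1.36 to 2.71).

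For ConA+FICZ over ConA+Veh, the genes parted. Rbm3 had a ratio of 0.78 (0.73 to 0.84) in T-gated, 0.56 (0.49 to 0.64) in B-gated, 0.79 (0.57 to 1.01) in NK-gated and 0.71 (0.60 to 0.82) in phagocyte-gated cells. Cirbp had 0.10 (−0.17 to 0.36) in T-gated, −0.04 (−0.32 to 0.24) in B-gated, 0.11 (−0.52 to 0.73) in NK-gated and −0.12 (−0.81 to 0.56) in phagocyte-gated cells. All 4 Cirbp intervals include 0, and those of T-gated and B-gated cells leave out a ratio as large as the one of ConA+TCDD. Neither gene passed 2-fold, as did 0.318% of genes upwards and 0.65% downwards in T-gated cells and 0.709% and 0.879% in B-gated cells. Both comparisons share the ConA+Veh library, so ConA+TCDD was also set directly against ConA+FICZ. There the ratio of Cirbp was 0.63 (0.38 to 0.88) in T-gated and 0.87 (0.57 to 1.17) in B-gated cells. It was 0.22 (−0.15 to 0.59) in cycling and 0.99 (0.64 to 1.36) in other T-gated cells. From low to high depth it was −1.62 (−4.21 to 0.51), 1.12 (0.27 to 2.05) and 0.57 (0.30 to 0.84) in T-gated cells. B-gated cells gave 0.55 (−0.31 to 1.37), 1.53 (0.98 to 2.10) and 0.41 (−0.03 to 0.84). Several of these intervals include 0, so a difference was not detectable in every subset. The Rbm3 ratio of the whole gates was −0.06 (−0.11 to −0.0048) in T-gated and 0.08 (−0.01 to 0.17) in B-gated cells. The former had the opposite sign in 4 alternatives: 0.45 with equal weight for each cell, 0.50 (0.43 to 0.57) without cycling cells, 0.19 without the 5% of cells with the most UMIs, and 0.02 in clusters in place of gates. Within the 3 ranges of depth it was 0.37 (−0.31 to 1.07), 1.58 (1.34 to 1.83) and −0.17 (−0.22 to −0.11) in T-gated cells, and 0.68 (0.35 to 1.02), 1.15 (0.96 to 1.33) and −0.35 (−0.45 to −0.24) in B-gated cells. The near-equal Rbm3 levels of the 2 libraries with a ligand thus held for the whole gates but not in every range of depth. ConA+TCDD was higher at 2500 to 5000 UMIs and lower over 5000 UMIs in T-gated and B-gated cells. Under 2500 UMIs it was higher in B-gated cells, and the interval of T-gated cells included 0. By mitochondrial share, the Rbm3 ratio in B-gated cells was 0.01 (−0.08 to 0.10) at most 5% and 1.17 (0.75 to 1.59) over 5%. In T-gated cells it was −0.04 (−0.10 to 0.01) and −0.04 (−0.46 to 0.38).

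**Figure D2:**
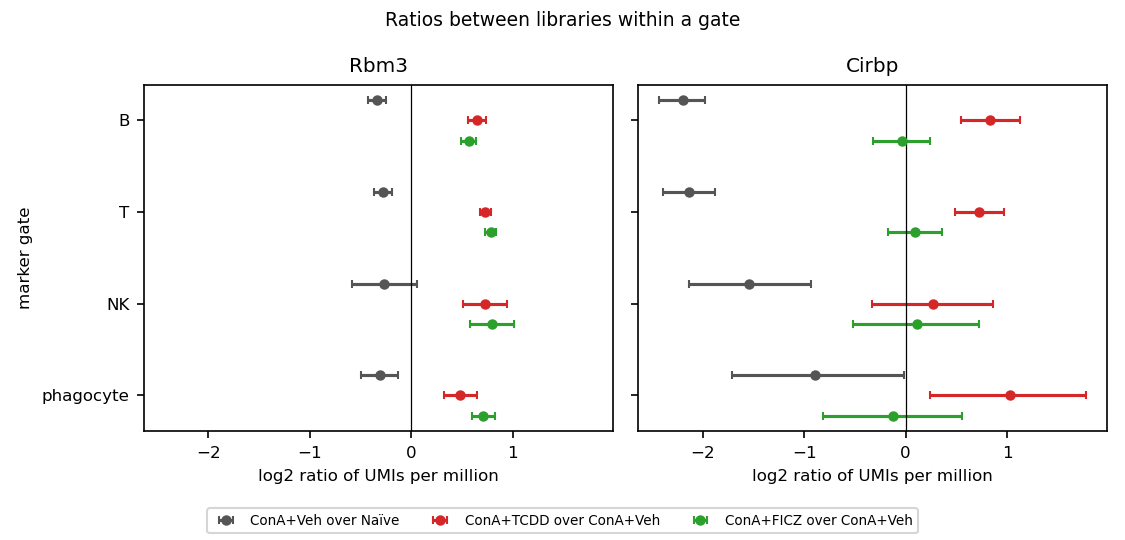
Log2 ratios of CPM (horizontal axes) between libraries within the B, T, NK and phagocyte gates, for Rbm3 (left) and Cirbp (right), with exact 95% intervals from counting error. ConA+FICZ over ConA+Veh is above 0 for Rbm3 in all 4 gates and includes 0 for Cirbp in all 4.

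The levels do not show how the UMIs were spread over cells. To compare cells of unlike depth, 1000 UMIs were drawn from every cell, which removed cells with fewer. A Rbm3 UMI was then found in 48.9% (44.3 to 53.4%) of 479 Naïve, 33.5% (30.1 to 36.9%) of 759 ConA+Veh, 51.1% (47.1 to 55.1%) of 636 ConA+TCDD and 53.9% (49.5 to 58.3%) of 521 ConA+FICZ T-gated cells. Without thinning these shares were 73.4%, 78.0%, 83.7% and 85.4%. ConA+TCDD and ConA+FICZ thus had similar shares of T-gated cells with Rbm3. A Cirbp UMI was found in 12.9% (10.1 to 16.3%), 3.95% (2.68 to 5.59%), 5.82% (4.13 to 7.93%) and 3.65% (2.21 to 5.64%) of the thinned T-gated cells, and in 32.7%, 25%, 32.0% and 31.2% without thinning. No gate was known to lack either gene, so no share could serve as a background. Among the lower shares with a Rbm3 UMI were 13.0% and 15.6% in neutrophil-gated cells of ConA+Veh and ConA+FICZ, whose median depths were 2287 and 2143 UMIs against 7750.5 and 9250 in the T-gated cells.

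The libraries differed most in cells with many Rbm3 UMIs. Of the thinned T-gated cells, 3.76% (2.24 to 5.87%) of Naïve, 2.50% (1.51 to 3.88%) of ConA+Veh, 17.6% (14.7 to 20.8%) of ConA+TCDD and 6.72% (4.72 to 9.22%) of ConA+FICZ held 3 or more. In B-gated cells the shares were 2.07% (1.30 to 3.12%), 1.82% (0.999 to 3.04%), 13.4% (10.1 to 17.3%) and 4.53% (3.16 to 6.28%). The ConA+TCDD library stood apart in both gates, with an interval above those of the other 3. In NK-gated cells 0 of 98, 1 of 228, 11 of 160 and 5 of 160 cells held 3 or more, and of the ungated ConA+TCDD cells 46 of 338 did, which is 13.6% (10.1 to 17.7%). The limit of 3 was chosen after these values had been seen. In ConA+TCDD, 45 T-gated cells held exactly 3 and 69 held exactly 2.

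The Rbm3 UMIs were also spread more unevenly over the cells of ConA+TCDD. The variance over the mean of the thinned Rbm3 UMIs was 0.99 in Naïve, 1.28 in ConA+Veh, 2.23 in ConA+TCDD and 1.15 in ConA+FICZ. In B-gated cells it was 1.07, 1.17, 1.97 and 1.28. The ConA+TCDD cells with 3 or more UMIs were 17.6% of the thinned T-gated cells and carried 36.3% of their Rbm3 UMIs, while those of ConA+FICZ carried 15.3%. That such cells carry more than their share follows from how they were chosen. A Poisson spread at each library's own mean would put 11.4% of the T-gated cells of ConA+TCDD at 3 or more. For ConA+FICZ it would put 5.06% there, against the 6.72% found. For Naïve and ConA+Veh it would put 2.97% and 1.12% there, against the 3.76% and 2.50% found. An excess over the Poisson share was thus not particular to ConA+TCDD.

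**Figure D3:**
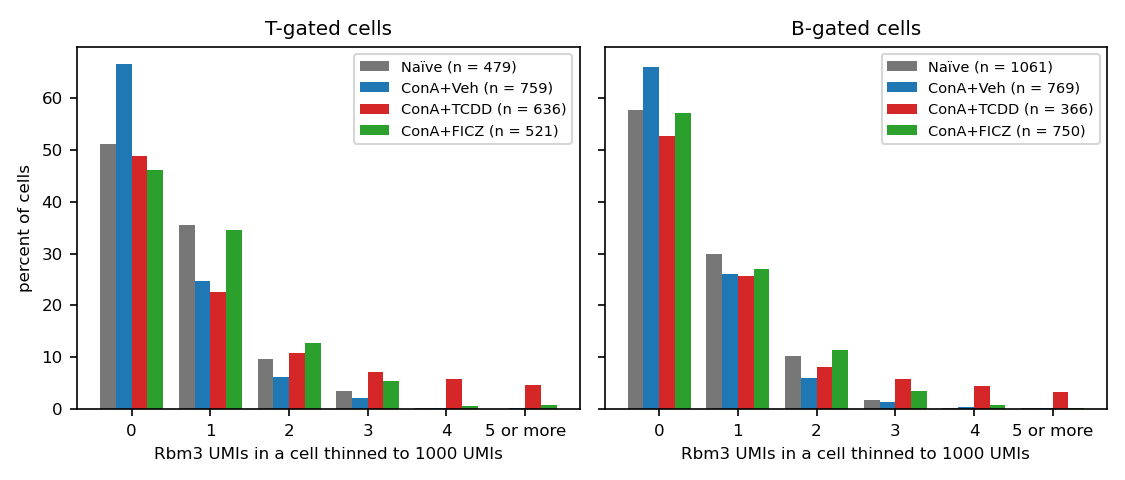
Percent of T-gated (left) and B-gated (right) cells (vertical axis, from 0) by the number of Rbm3 UMIs after each cell was thinned to 1000 UMIs (horizontal axis), with 1 bar per library. The bars at 3, 4 and 5 or more are highest for ConA+TCDD in both gates, and together they make 17.6% of its T-gated cells.

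Cycling separated the cells further. In cycling T-gated cells Rbm3 was at 735 CPM (634 to 846) in 15 Naïve cells, 579 (561 to 597) in 471 cells of ConA+Veh, 572 (549 to 596) in 250 cells of ConA+TCDD and 895 (866 to 923) in 216 cells of ConA+FICZ. The T-gated cells outside the cycle held 671 CPM (631 to 712), 488 (457 to 522), 1529 (1480 to 1579) and 1080 (1040 to 1122). The ConA+TCDD level was therefore like that of ConA+Veh in cycling T-gated cells, with a log2 ratio of −0.02 (−0.09 to 0.06). In the other T-gated cells the ratio was the 1.65 given above. For ConA+FICZ the ratio was 0.63 (0.56 to 0.69) in cycling and 1.15 (1.04 to 1.26) in the other cells, and ConA+TCDD over ConA+FICZ was −0.64 (−0.72 to −0.57) and 0.50 (0.43 to 0.57). Whether these ratios differ beyond the variation between mice was not tested.

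Subsets of the T-gated and B-gated cells were described in the same way. CD4 cells, those with Cd4 and no Cd8a or Cd8b1 UMI, held 627, 642, 660 and 1025 CPM of Rbm3 in the 4 libraries, and their ratio of ConA+TCDD over ConA+Veh was 0.04 (−0.10 to 0.18). CD8 cells, with the reverse, held 696, 550, 781 and 960 CPM, with a ratio of 0.51 (0.43 to 0.58). For ConA+FICZ the ratios were 0.67 (0.54 to 0.80) and 0.80 (0.73 to 0.88). There were 86, 124, 89 and 79 CD4 cells and 170, 396, 268 and 243 CD8 cells, in T gates of 504, 768, 649 and 529 cells. The ConA+TCDD ratios of CD4 and CD8 cells were both below the 0.73 of the whole T gate. T-gated cells in neither subset were not described apart. Only 4, 13, 15 and 22 cells had a UMI of Foxp3, which marks regulatory T cells, and their Rbm3 levels were 404 CPM (83.4 to 1181), 493 (376 to 637), 509 (350 to 715) and 920 (797 to 1056). B-gated cells with at least 2 of the activation genes Mreg, Cd86 and Cd200 held 941, 710, 1288 and 763 CPM, in 24, 34, 52 and 26 cells, and the other B-gated cells held 608, 480, 663 and 736 CPM. For Cirbp, the ratio of ConA+TCDD over ConA+FICZ was 0.05 (−0.58 to 0.68) in CD4 and 0.61 (0.25 to 0.97) in CD8 cells.

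Over T-gated and B-gated cells, Rbm3 and Cirbp had their highest correlation in ConA+TCDD. The Pearson correlation of ln(1 + UMIs per 10000) in T-gated cells was 0.10 in Naïve, 0.07 in ConA+Veh, 0.36 in ConA+TCDD and 0.00 in ConA+FICZ, over 504, 768, 649 and 529 cells. In B-gated cells it was 0.01, 0.03, 0.34 and 0.07, over 1089, 836, 397 and 785 cells. Spearman's rho in ConA+TCDD was 0.34 and 0.31. The points share a library and differ in depth, and among thinned cells the Pearson correlation of ConA+TCDD was 0.25 in T-gated and 0.16 in B-gated cells, against −0.03 to 0.03 in the other libraries. These correlations are weak and rest on sparse counts. Of the thinned T-gated cells of ConA+TCDD, 28 of 636 held a UMI of both genes, and in ConA+FICZ 10 of 521 did. If the genes were independent, 18.9 and 10.2 cells would be expected. In B-gated cells of ConA+TCDD 22 of 366 held both, against 15.1 expected. Elsewhere in ConA+TCDD the correlation was 0.14 over 176 NK-gated, 0.44 over 46 phagocyte-gated and 0.37 over 474 ungated cells. Among the thinned cells of these sets it was −0.10 over 160, 0.79 over 45 and 0.08 over 338, of which 1, 2 and 29 cells held both genes.

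In T-gated cells of ConA+TCDD, Cirbp was at 28.9 CPM (13.2 to 54.9) in the 311 thinned cells with no Rbm3 UMI, 56.3 (29.1 to 98.4) in the 213 cells with 1 or 2, and 161 (95.2 to 254) in the 112 cells with 3 or more. B-gated cells gave 57.0 CPM (28.5 to 102) in 193 cells, 121 (67.7 to 200) in 124 cells and 204 (97.9 to 375) in 49 cells. In both gates the interval of the cells richest in Rbm3 overlapped that of the whole Naïve gate. The former is of thinned UMIs, in which each cell weighs the same, and the latter of all UMIs. NK-gated and ungated cells of ConA+TCDD had no such stepwise rise. The same groups held 59.4, 20.8 and 0 CPM (0 to 335) of Cirbp in NK-gated cells, the last in 11 cells. In ungated cells they held 52.3 CPM (23.9 to 99.3), 258 (176 to 367) and 65.2 (13.4 to 191). In T-gated cells the same groups held 155, 139 and 167 CPM (34.4 to 487) in Naïve and 47.5, 21.3 and 158 (32.6 to 461) in ConA+Veh. The last value of each library rests on 3 UMIs, in 18 and 19 cells. B-gated cells held 243, 254 and 45.5 CPM (1.15 to 253) in Naïve and 76.8, 68.8 and 0 (0 to 263) in ConA+Veh. In ConA+FICZ the same groups held 41.7, 28.5 and 85.7 CPM in T-gated and 56.1, 45.1 and 58.8 CPM in B-gated cells. The last of these rest on 3 and 2 UMIs, and their intervals, 17.7 to 250 and 7.12 to 212 CPM, include the values of the other groups.

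Cd52, which encodes a small glycoprotein abundant on the surface of lymphocytes, moved the other way in ConA+TCDD. It was at 1315 CPM (1191 to 1449) in T-gated cells with no Rbm3 UMI, 1056 (923 to 1204) in those with 1 or 2, and 134 (74.96 to 221) in those with 3 or more. In B-gated cells it was at 1979 CPM (1786 to 2188), 1839 (1608 to 2094) and 327 (187 to 530). Among T-gated cells the other libraries had no such step: with 3 or more Rbm3 UMIs, Naïve had Cd52 at 1833 CPM (1262 to 2575), ConA+Veh at 2263 (1638 to 3048) and ConA+FICZ at 1400 (1036 to 1851). Outside the T gate ConA+FICZ had lower values too, at 1588 CPM (1193 to 2072) in B-gated cells with 3 or more against 2079 (1945 to 2221) in those with none, and at 143 (3.62 to 796) in 7 ungated cells against 1356 (1154 to 1583). The median depth of the T-gated ConA+TCDD cells with 3 or more was 5560.5 UMIs, against 7191 in those with none, and their median mitochondrial share was 2.37% against 2.97%. In B-gated ConA+TCDD cells the depths were 3419 and 3961 UMIs, and the mitochondrial shares 3.05% and 2.96%.

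**Figure D4:**
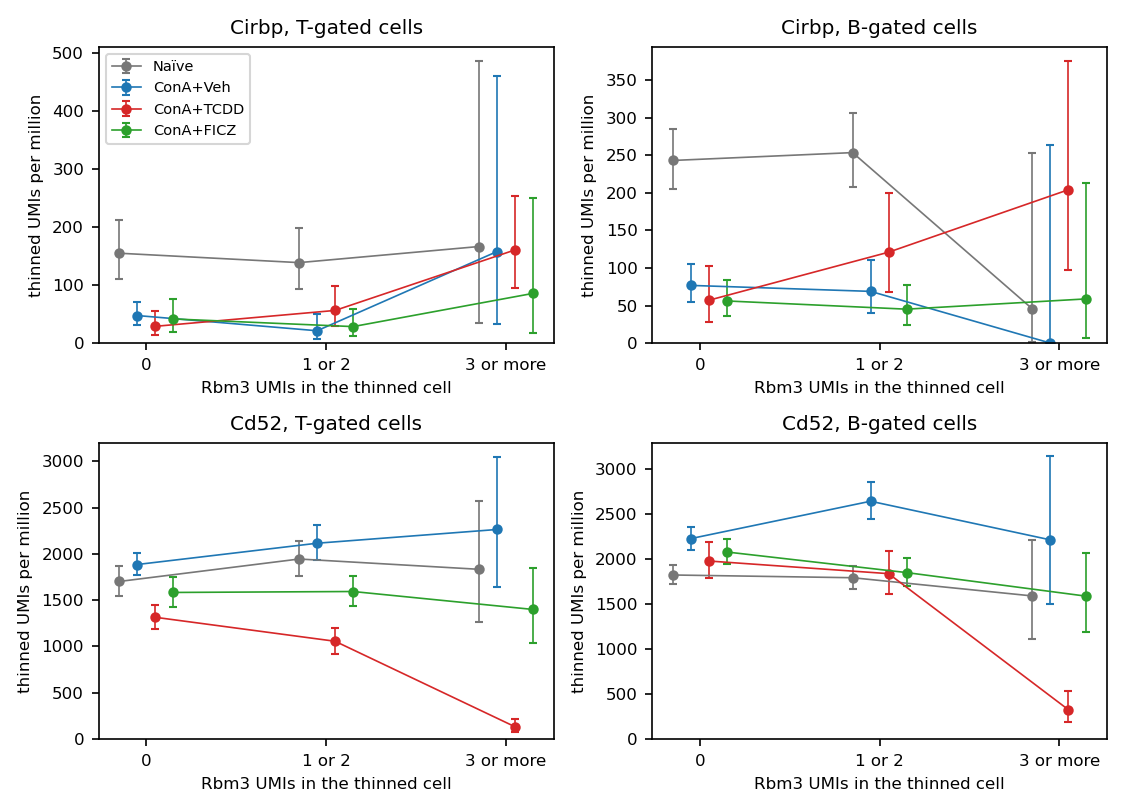
Thinned CPM (vertical axes, from 0) of Cirbp (top) and Cd52 (bottom) in T-gated (left) and B-gated (right) cells, grouped by their Rbm3 UMIs after thinning to 1000 UMIs, with exact 95% Poisson intervals and 1 line per library. In ConA+TCDD the cells with 3 or more Rbm3 UMIs have the highest Cirbp and the lowest Cd52 level, at 161 and 134 CPM in T-gated cells.

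Cells were also divided by Cd52 in place of Rbm3, a split made after these values had been seen. T-gated cells that were not cycling and had no Cd52 UMI held 614 CPM (473 to 784) of Rbm3 in 49 Naïve cells, 208 (83.7 to 429) in 21 cells of ConA+Veh, 2369 (2261 to 2481) in 153 cells of ConA+TCDD and 994 (849 to 1157) in 36 cells of ConA+FICZ. Those with a Cd52 UMI held 675 CPM (634 to 718), 494 (461 to 527), 1140 (1089 to 1193) and 1087 (1045 to 1130). Rbm3 was thus higher with either ligand among cells with a Cd52 UMI that did not cycle, and far higher in the ConA+TCDD cells without it. The split used unthinned counts, so shallow cells more easily lack a Cd52 UMI, and depth was not matched between the libraries. In T-gated cells from low to high depth, Rbm3 was at 259, 293 and 589 CPM in ConA+Veh and 423, 1412 and 890 in ConA+TCDD. Among cycling cells with Cd52 it was at 581 CPM (563 to 599) in ConA+Veh, 566 (543 to 590) in ConA+TCDD and 898 (870 to 927) in ConA+FICZ. B-gated cells that were not cycling and had no Cd52 UMI held 481, 285, 1765 and 788 CPM, in 92, 81, 79 and 67 cells. Those with a Cd52 UMI held 622, 469, 730 and 733 CPM. Cycling B-gated cells with Cd52 held 601 CPM in 114 cells of ConA+Veh, 486 in 39 of ConA+TCDD and 749 in 59 of ConA+FICZ. Unlike in cycling T-gated cells, their ratio of ConA+TCDD over ConA+Veh was below 0, at −0.31 (−0.51 to −0.10). Clusters were also made without Rbm3 and Cirbp, but Cd52 and the cycling genes were not left out. In 1 cluster 147 of 148 gated cells were T-gated, and 137 of its 202 cells came from ConA+TCDD. Its Rbm3 level was 2247 CPM there, 1241 in 37 cells of ConA+FICZ and 571 in 22 cells of ConA+Veh. It is named because it had the highest ConA+TCDD level of Rbm3 among the clusters with a level given, so that level follows from the choice. Other clusters were also high in ConA+TCDD, at 1352, 1348 and 1143 CPM. How far its cells overlap the groups above was not measured.

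**Figure D5:**
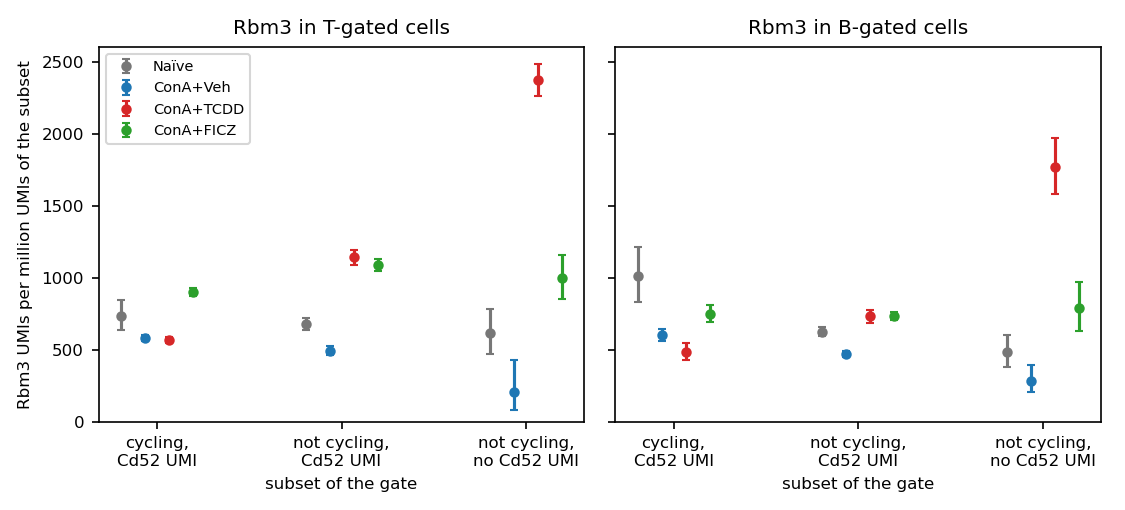
Rbm3 CPM (vertical axis, from 0) in T-gated (left) and B-gated (right) cells, divided by cycling genes and by the presence of a Cd52 UMI, with exact 95% Poisson intervals. ConA+TCDD lies at 566 CPM in cycling T-gated cells with Cd52, near ConA+Veh, and at 2369 CPM in cells with neither.

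The ConA+TCDD cells with 3 or more Rbm3 UMIs were then set against those with none for other genes. The ratio of Rbm3 itself is fixed by the choice of the cells and is not given. Cirbp had a log2 ratio of 2.04 in T-gated and 2.29 in B-gated cells, and 15 of 4308 and 2 of 1659 genes, Rbm3 included, had a higher one. The share of genes at least 2-fold higher was 3.3% in T-gated and 2.83% in B-gated cells, and that of genes at least 2-fold lower was 18.2% and 14.0%. In T-gated cells all 9 tested cycling genes were 2-fold lower, with a median of −3.37 against −0.20 over all genes tested, and 6.25% of the cells with 3 or more Rbm3 UMIs were cycling against 52.1% of those with none. Of 16 tested heat shock and chaperone genes 4 were 2-fold lower and none was higher, against 18.2% and 3.3% of all genes. Their median was −0.45, against −0.20 over all genes. In B-gated cells 1 of 13 was 2-fold lower and 0 were higher, against 14.0% and 2.83% of all genes. There the median was −0.08, against −0.11 over all genes.

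In T-gated cells the summed levels of haemoglobin genes and metallothioneins were higher in the cells with 3 or more Rbm3 UMIs. The share of cells with a haemoglobin UMI was not higher. The genes with the largest ratios in T-gated cells, chosen after their values had been seen, were the haemoglobin genes Hbb-bs, Hbb-bt and Hba-a1 and the metallothioneins Mt1 and Mt2, which bind zinc and copper. A metallothionein UMI was found in 58.0% of the cells with 3 or more Rbm3 UMIs and in 22.8% of those with none. Haemoglobin genes together were at 35.1 CPM in the cells with no Rbm3 UMI and at 1799 CPM in those with 3 or more, but a haemoglobin UMI was found in 28.3% of the former and 26.8% of the latter. Of 9 erythroid list genes, 3 had a UMI in the cells with 3 or more, at 61.4 CPM in all against 7.26 CPM, and Slc4a1, Klf1, Epb42, Hemgn, Rhag and Cldn13 were at 0. A UMI of that list was found in 1.79% of the cells with 3 or more and in 5.79% of those with none. Haemoglobin UMIs occurred in 29.7% of T-gated cells of ConA+TCDD, 13.7% of ConA+Veh, 1.39% of Naïve and 0.57% of ConA+FICZ. Without the cells that held one, the ratio of ConA+TCDD over ConA+Veh in T-gated cells was 0.73 (0.67 to 0.80) for Rbm3 and 0.69 (0.42 to 0.97) for Cirbp, as large as with them. The part of the metallothioneins in the result was not tested. In B-gated cells the leading gene was Cd200, a marker of activation here, with a ratio of 3.44.

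In T-gated cells no other RNA-binding gene of 3 lists had a ratio of ConA+TCDD over ConA+Veh as large as those of Rbm3 and Cirbp. There 0 of 18 tested genes of the same RNA recognition motif family, 0 of 16 genes of splicing factors of the SR family and their Clk kinases, and 0 of 20 genes of hnRNP proteins, which package nascent transcripts, passed 2-fold in either direction. Rbm3 and Cirbp did not pass it either, and only 0.296% of all genes tested were past 2-fold higher and 0.527% lower. The median ratios of the 3 lists were 0.01, 0.05 and 0.00, against −0.04 over all genes tested. The 4 largest ratios of the first group were those of Rbm27 (0.29), Rbm26 (0.25), Rbm8a (0.25), a core part of the exon junction complex, and Rbmxl1 (0.18). Among the SR group they were Srsf3 (0.35), Srsf7 (0.29), Clk2 (0.25) and Tra2a (−0.25). Among the hnRNP genes Hnrnpdl stood out at 0.64 (0.55 to 0.73), with 345 CPM in ConA+TCDD, 221 in ConA+Veh and 231 in ConA+FICZ, followed by Hnrnpa1 (0.29), Hnrnpul1 (−0.27) and Hnrnpll (−0.17). Hnrnpdl came nearest to Rbm3 and Cirbp, and its interval overlapped theirs. Its ratio for ConA+FICZ over ConA+Veh, 0.06 (−0.04 to 0.16), included 0 like that of Cirbp. In B-gated cells 1 of 16 tested genes of the motif family passed 2-fold, where 0.32% of all genes did so upwards: Rbm26 was at 1.16 (0.78 to 1.55), above the ratios of Rbm3 and Cirbp there.

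Heat shock genes, which respond to heat in the opposite direction to Rbm3 and Cirbp, had a median of −0.04 in the same comparison. Of 17 tested, 1 passed 2-fold, against the 0.527% of all genes that were that much lower: Hspa1a, an inducible chaperone, was at −1.96 (−2.73 to −1.26), on 20 UMIs in ConA+TCDD against 104 in ConA+Veh. Hsp90b1 (−0.36), Hspa5 (−0.34), both chaperones of the endoplasmic reticulum, and Chordc1 (−0.25) followed. For ConA+FICZ over ConA+Veh none of 18 passed 2-fold, against 0.318% higher and 0.65% lower of all genes, and Hspa1a was at 0.23 (−0.19 to 0.65). In ConA+Veh over Naïve, where Cirbp was lower, 5 of 18 heat shock genes in T-gated cells were at least 2-fold higher and 3 were at least 2-fold lower (Hspa1a, Hspa1b and Dnajb1, named after their values had been seen), against 8.86% and 10.4% of all genes, with a median of 0.63. In B-gated cells 7 of 18 were higher and 0 lower, against 6.71% and 14.0%, with a median of 0.84.

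Rbm3 and Cirbp are known to vary with the daily cycle of body temperature, so clock genes were listed beside them. Of 8 tested in T-gated cells for ConA+TCDD over ConA+Veh none passed 2-fold, against 0.296% higher and 0.527% lower of all genes, with a median of 0.17, and the largest ratios were those of Nr1d2 (0.79, on 57 and 44 UMIs), Per1 (0.34), Rora (0.30) and Bhlhe40 (0.18). For ConA+FICZ over ConA+Veh, Rora, a nuclear receptor, was at −1.17 (−1.55 to −0.81) and was the 1 of 6 to pass, against 0.65% of all genes that were as much lower. Of the AhR list 3 of 10 genes had enough UMIs in T-gated cells, too few to read against 0.296% and 0.527% of all genes, and none passed 2-fold: Ahr itself was at 0.10 (−0.20 to 0.39) for ConA+TCDD over ConA+Veh, Tiparp, a known AhR target, at −0.10 and Arnt, the partner of AhR, at −0.14. The other 7 genes of that list had too few UMIs in T-gated cells to be compared.

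Of 13 immediate early genes, 1 passed 2-fold for ConA+TCDD over ConA+Veh in T-gated cells, namely Atf3, a stress-induced transcription factor, at 1.08 (0.59 to 1.58), against 0.296% of all genes that were at least 2-fold higher, whereas Ier3 was at −0.52, Fos at −0.46 and Jund at −0.35. Of 10 cycling genes 2 were 2-fold lower, against 0.527% of all genes, namely Ccnb2 at −1.23 and Ube2c at −1.07, and Cenpf (−0.74) and Nusap1 (−0.60) came next. All 10 were below 0, with a median of −0.52. In ConA+TCDD 52.1%, 37.6% and 6.25% of T-gated cells with 0, 1 or 2, and 3 or more thinned Rbm3 UMIs were cycling. The shares were 60.4%, 63.8% and 73.7% in ConA+Veh and 43.8%, 39.4% and 40.0% in ConA+FICZ. In Naïve they were 2.45%, 4.17% and 0%. Cycling was called on unthinned cells, so deeper cells pass more easily, and the groups differed in depth. Their median depths were 6222, 10652 and 23407 UMIs in ConA+Veh and 6294.5, 11815.5 and 16837 in ConA+FICZ. In ConA+TCDD the median depths were 7191, 7283 and 5560.5 UMIs. Cd200, the 1 tested gene of the activated B list, was at 1.26 (0.88 to 1.64).

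Across 19 sums of a gate and a library with at least 50 cells each, the patterns of the pair were not alike. The Pearson correlation of log2(CPM + 10) between Rbm3 and Cirbp was 0.36, which made Cirbp the gene of rank 4131 among 10600 by likeness to Rbm3 over sums that share libraries and gates. The genes most like Rbm3 were Ddx23, Tcof1, Cpsf3, Hnrnpf and Nup188, with correlations of 0.89 to 0.91, and those most like Cirbp were 4833420G17Rik, Hist3h2ba, Pde7a, Akap8l and Avl9, at 0.91 to 0.94. With each gate centred on its own mean over the libraries, which kept 15 sums, the pair had a correlation of −0.08. Hic1, 1110004F10Rik, Dtwd1, Ppan and Spout1 were then most like Rbm3, at 0.79 to 0.92, and Rpl13a, Rbm39, Phf21a, 2900060B14Rik and Mirt1 most like Cirbp, at 0.95 to 0.97. The 2 genes therefore ranked high for one another neither by level nor after centring.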

How the data were processed

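The deposited values are raw UMI counts per gene and cell barcode, which the authors made from 10x Genomics 5′ libraries with Cell Ranger 3.0.2 against mm10, with no normalization and no further filter; whether the counting used strand is not given in the sources used here. All 9300 cells were used, and doublets were not removed. Rbm3 and Cirbp, the gene lists and the gates were chosen with earlier results of these data known, and the same holds for the rules on names.

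Cells were gated by 12 marker lists, and 1 listed gene was not matched. UMIs were summed per gate and library. Ratios over many genes used genes with at least 100 UMIs in both sums together, and a ratio past 2-fold was counted. Thinning to 1000 UMIs used a fixed seed. Of each of 9 gene lists, the 4 genes with the largest absolute ratio of ConA+TCDD over ConA+Veh in T-gated cells were named, and of the most similar genes the first 5. The ratio and its interval were run on simulated Poisson counts. These leave out the uneven spread of UMIs over cells, so they cannot show how the interval holds under it. Depth was 5952445 to 19252211 UMIs per library, and in ratios over many genes any count below 3 was raised to 3. Intervals used scipy 1.17.1 under Python 3.11.15, clusters used scanpy, igraph 0.11.9 and leidenalg 0.10.2, alignments used Biopython 1.88, and figures used matplotlib 3.10.9. The alternatives were other gates, Leiden clusters, filters on cells, other totals and depths, other minimum counts and another pseudocount. Leaving out cells with a haemoglobin UMI and cells with no Cd52 UMI was chosen after seeing the data. Promoters came from RefSeq and transcripts from GENCODE vM21.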

Additional observations from a re-analysis of the deposited data

Results flagged for a closer look

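Rbm3 in neutrophil-gated cells had a log2 ratio of ConA+Veh over Naïve of 1.67 (0.26 to 3.58), whereas 5 other gates with an interval on 1 side of 0 were lower. The Naïve sum was only 4 UMIs in 23 cells. For ConA+FICZ over ConA+Veh the same gate was at −0.47 (−0.88 to −0.05) while 7 others were higher. Whether the neutrophil gate differs from the others was not tested.

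For ConA+TCDD over ConA+FICZ, Rbm3 was at −0.056 in T-gated, −0.23 in phagocyte-gated and −2.18 in endothelial-gated cells, while 3 other sets of cells were higher. The endothelial value rests on 8 ConA+TCDD cells with 4 UMIs. With 1 library per group, the difference between gates was not tested.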

How the results depend on the processing

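The 16 log2 ratios of Rbm3 and Cirbp in T-gated and B-gated cells kept their direction in 138 of 144 alternatives. Below, ratios are of Rbm3 unless Cirbp is named, and the cause of a change was not tested. Without cycling cells, T-gated cells gave −0.46 for ConA+Veh over Naïve, 1.65 for ConA+TCDD over ConA+Veh, 1.15 for ConA+FICZ over ConA+Veh and 0.50 for ConA+TCDD over ConA+FICZ, with Cirbp at −1.76 for the first and 0.99 for the last, and B-gated cells gave 0.89, 0.67 and 0.21 for the last 3. With equal weight for each cell, the 4 ratios were −0.45, 1.35, 0.90 and 0.45 in T-gated cells, and −0.45, 1.06 and 0.48 in B-gated cells for ConA+Veh over Naïve, ConA+TCDD over ConA+Veh and ConA+TCDD over ConA+FICZ. Without the 5% of cells with the most UMIs, T-gated cells gave 1.17 for ConA+TCDD over ConA+Veh, 0.98 for ConA+FICZ over ConA+Veh and 0.19 between the ligands. In clusters in place of gates, ConA+TCDD over ConA+Veh was 0.81 in T and 0.85 in B cells, and ConA+TCDD over ConA+FICZ was 0.025 and 0.26. A looser gate gave 0.78 and 0.23 for these in B cells, and leaving ribosomal protein and mitochondrial genes out of the totals gave −0.24 for ConA+Veh over Naïve. Without the cells that had no Cd52 UMI, a choice made after seeing the data, ConA+TCDD over ConA+Veh was 0.38 in T-gated and 0.39 in B-gated cells, Cirbp was 0.48 in T-gated cells, and ConA+TCDD over ConA+FICZ was −0.40 and −0.15. In phagocyte-gated cells ConA+Veh over Naïve turned to 0.30 without the cells with the most UMIs, and ConA+TCDD over ConA+FICZ turned to 0.16 without cycling cells and 0.17 with equal weight.

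Shares of cells depend on depth. In the order Naïve, vehicle, TCDD and FICZ, thinning to 500 UMIs gave 24.6%, 19.4%, 34.2%, 30.4% of T-gated cells with Rbm3 and 7.74%, 1.95%, 3.08%, 1.7% with Cirbp, and 22.5%, 19.1%, 28.7%, 24.3% and 10.7%, 3.59%, 6.8%, 2.17% of B-gated cells. With no thinning they were 73.4%, 78%, 83.7%, 85.4% and 32.7%, 25%, 32%, 31.2% in T-gated, and 66.9%, 70.9%, 75.3%, 71% and 40.7%, 22.8%, 30.7%, 21.7% in B-gated cells. Thinning moved the correlation of the genes to 0.16 in B-gated and 0.25 in T-gated cells of ConA+TCDD, −0.028 in B-gated cells of ConA+FICZ and −0.0063 in T-gated cells of Naïve. With at least 30 UMIs a gene, 2 of 19 heat shock genes were 2-fold lower in T-gated cells for ConA+TCDD over ConA+Veh. Of the activated B list 2 of 2 tested genes were 2-fold higher there. The share over all genes was not taken at this minimum, so these counts have nothing to be read against. With a pseudocount of 1 CPM, 2 of the 5 genes most like Cirbp stayed by level and 3 after centring. No paired analysis was possible because each group had 1 library, and no replicate could be left out for the same reason.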
